A study of Homo sapiens with 4 samples.

Results

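The cassette exons of the solute carrier genes were described in a splicing comparison of HEK293T cells with and without RBFOX2. HEK293T is an established human embryonic kidney cell line, and RBFOX2, known too as RBM9, binds GCATG motifs in RNA and regulates whether nearby exons are spliced in. Members were chosen by name alone: every row of the deposited skipped-exon table whose gene symbol starts with SLC and a digit. They were 481 events of 31408 in the table, which are 427 exons of 27528 and 154 genes of 9172. In each event a cassette exon is kept or skipped between 1 given pair of flanking exons, and the same exon can appear with several pairs. Of the 154 symbols, SLC2A4RG, SLC7A6OS and SLC9A3R1 (now NHERF1) name a regulator, an opposite-strand neighbour and a scaffold protein. The other 151 name members of solute carrier families, which does not by itself show transport by each. SLC26A10 among them is now the pseudogene SLC26A10P.

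Per the labels, the samples were 4 clones, 2 wild type (WT-2-D5 and WT-3-D4) and 2 with an RBFOX2 knockout (KO-2-A4 and KO-3-G11). The labels give 1 protocol for all 4: transfection with PX459, which carries Cas9, and pgRGFP with guides flanking RBFOX2, then growth from single sorted cells. Each sample is thus 1 clone, so a difference between sets can also be a difference between clones. Total RNA was depleted of ribosomal RNA and sequenced with strand information. The table names its library columns by set number only and does not say which set is wild type. For this reason a direction below names the set with the higher inclusion, never a gain or loss on knockout, and values per clone, their spread and the read depth are not given. Every difference and p-value below is the authors' own value, from a model with 2 libraries per set. The table lists 0 events in RBFOX2, so the knockout was not checked by its own transcript.

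Solute carriers are membrane proteins that move amino acids, sugars, nucleotides, metals, ions and vitamins across the plasma membrane and the membranes of organelles, and the number after SLC gives the family. Most cross the membrane many times, so that a cassette exon in the coding part can code for a stretch of membrane-spanning segments or of the loops between them. A cassette exon in the 5′ untranslated region (UTR) leaves the protein sequence as it is, and one that shifts the reading frame usually brings in an early stop codon, which can send the transcript to nonsense-mediated decay.

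Inclusion is measured from junction reads, corrected for length, on a scale from 0 (always skipped) to 1 (always kept). An event was called when its false discovery rate (FDR) over the whole table was under 0.05 and its inclusion level differed by at least 0.1 between sets. By these limits 37 of the 481 solute carrier events (7.69%) were called, against 5.15% of the whole table. The first set was higher in 18 events (3.74%, against 2.77% of the table) and the second set in 19 events (3.95%, against 2.38%). The called events lay in 36 exons (8.43%, against 5.72% of all exons) of 27 genes (17.5%, against 13.7% of all genes). The share of called events was thus above that of the table in both directions; no test of this excess was made. The 3 genes that name no transporter had 3 events and 0 calls. An unadjusted p-value under 0.05 was listed for 70 solute carrier events (14.6%, against 12% of the table), and a p-value of 1 for 233 (48.4%, against 51.4%).

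**Figure D1:**
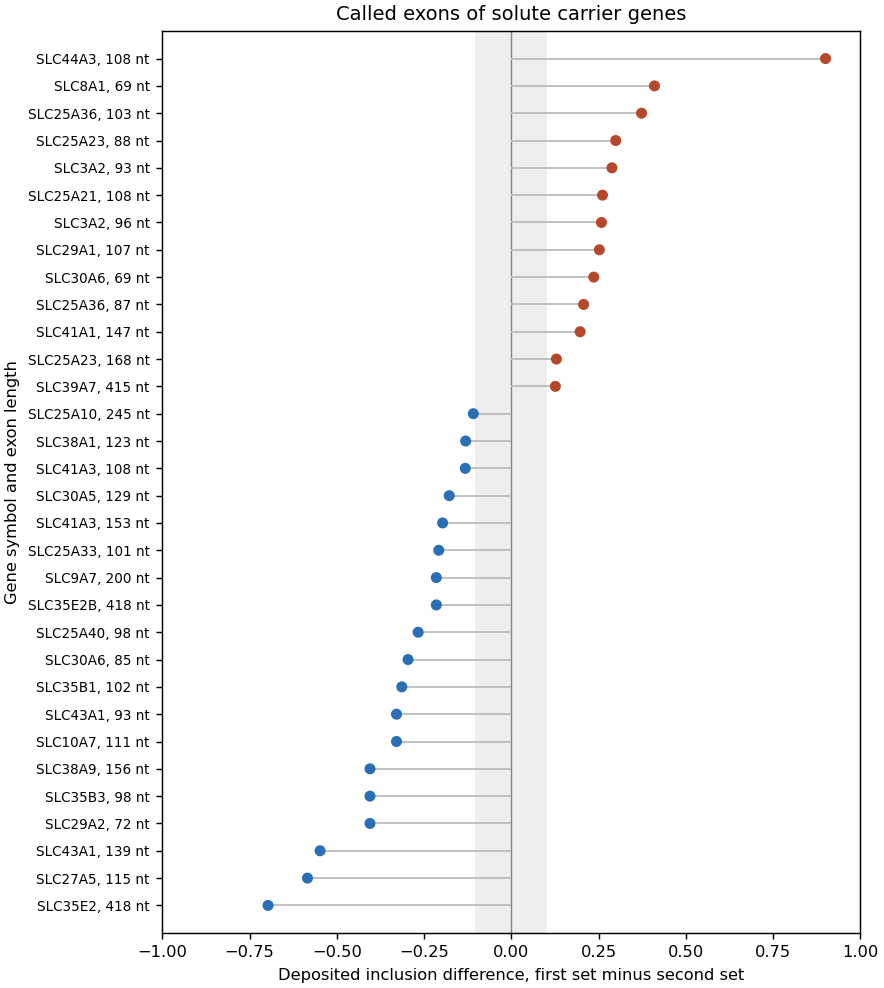
Each point is 1 called exon (32 are shown), with the inclusion difference of its called event of lowest p-value on the horizontal axis (first set minus second set, no unit) and its gene symbol and length on the vertical axis; red marks the first set higher, blue the second set, and the grey band differences under 0.1. The differences run from -0.697 (SLC35E2) to 0.9 (SLC44A3), with 13 of the exons shown above 0 and 19 below.

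The absolute difference of the 36 called exons ranged from 0.109 to 0.9, with a median of 0.277, close to the median of 0.271 over the 1575 called exons of the table. It was at least 0.5 in 5 of them, which include SLC44A3, SLC43A1, SLC27A5 and SLC35E2. Their lengths ran from 69 to 418 nt with a median of 108 nt, and 0 of the 19 solute carrier exons of at most 51 nt were called, against 175 of 1981 such exons in the table. Over all 481 events the median absolute difference was 0.071, against 0.048 in the table.

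Family 25, counted here as mitochondrial carriers, had 12 of 91 exons called (13.2%, against 5.72% of all exons). They lay in 7 of 30 genes, with the first set higher in 9 exons and the second in 3. SLC25A36, a mitochondrial carrier of pyrimidine nucleotides, had 2 neighbouring called exons, both matching only transcripts annotated for nonsense-mediated decay. The 103-nt exon (hg19 chromosome 3, 140685776 to 140685878, plus strand) differed in the authors' deposited table by 0.373 (FDR 0.000351) when the upstream flank was the 87-nt exon. The 87-nt exon, which the rule for named exons did not pick, was listed in the authors' deposited table at 0.207 (FDR 0.0486) when the downstream flank was the 103-nt exon. Between the outer flanks, values in the authors' deposited table were -0.237 for the 103-nt exon (p = 0.228) and -0.272 for the 87-nt exon (p = 0.0991). The sign of the difference in this gene thus went with the flanking exons, and neither negative value passed.

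**Figure D2:**
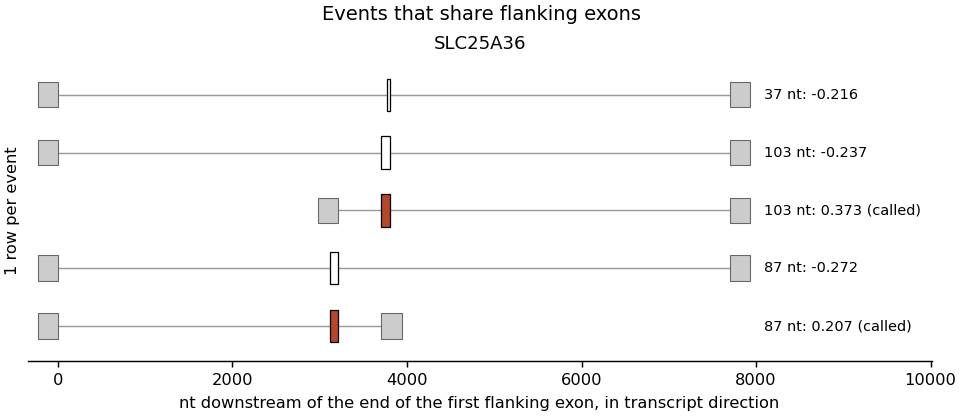
Each row is 1 of the 5 events of SLC25A36, drawn to scale in nt downstream of the first flanking exon's end; grey boxes mark the nearest ends of the flanking exons (their width is not to scale), the middle box the cassette exon (red if called with the first set higher, white if not called), with its length and inclusion difference at the right. The 87-nt and 103-nt exons are positive where each is the other's flank and negative between the outer flanks.

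SLC25A23, a calcium-regulated carrier of ATP-Mg and phosphate, had 2 called exons, both higher in the first set. An 88-nt exon (hg19 chromosome 19, 6438458 to 6438545, minus strand) differed in the authors' deposited table by 0.299 (FDR 0.000255). The 168-nt exon (6452323 to 6452490) passed with both of its flanking pairs, at 0.129 (FDR 0.00615) and 0.151 (FDR 0.0137) in the authors' deposited table. This exon codes for codons 302 to 357 of 468 in the full-length transcript, and its removal keeps the reading frame. For SLC25A21, the carrier of oxodicarboxylates, the authors' deposited table listed a 108-nt exon (hg19 chromosome 14, 37194775 to 37194882, minus strand) at 0.261 (FDR 0.00657). No GENCODE 29 exon matched it.

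In 3 mitochondrial carriers an exon was higher in the second set. SLC25A40, known as a carrier that supports mitochondrial glutathione import, had a 98-nt exon (hg19 chromosome 7, 87489387 to 87489484, minus strand) at -0.267 (FDR 0.0273) in the authors' deposited table. SLC25A10, the dicarboxylate carrier, had a 245-nt exon (hg19 chromosome 17, 79680292 to 79680536, plus strand) at -0.109 (FDR 0.0274) in the authors' deposited table, the called exon nearest to the minimum difference. Both exons match only transcripts annotated for nonsense-mediated decay. SLC25A33, a second carrier of pyrimidine nucleotides, had a 101-nt coding exon (hg19 chromosome 1, 9630316 to 9630416, plus strand) at -0.208 (FDR 0.0326) in the authors' deposited table; it lies outside the rule for named exons and was chosen after its value was seen, for the motif described below.

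Amino acid and peptide transporters had 6 of 73 exons called (8.22%, against 5.72% of all exons). They lay in 4 of 24 genes, with the first set higher in 2 exons and the second in 4. SLC3A2, the heavy chain (4F2hc, CD98) that carries several amino acid transporters to the plasma membrane, had the called event with the lowest p-value of all solute carriers. Its 96-nt exon (hg19 chromosome 11, 62644256 to 62644351, plus strand) was listed in the authors' deposited table at 0.258 (FDR 1.43e-05). A 93-nt form that starts 3 nt further downstream had 0.288 (FDR 0.000213) in the authors' deposited table. Both forms are counted against the same skipping junction. The 96-nt exon codes for codons 69 to 101 of 631 in the longest matching transcript, and its removal keeps the frame.

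The other called amino acid transporter exons were higher in the second set. SLC43A1, a transporter of branched-chain and other large neutral amino acids, had 2. Its 139-nt exon (hg19 chromosome 11, 57258697 to 57258835, minus strand) was listed at -0.548 (FDR 0.00816) in the authors' deposited table. In the matched transcript this exon covers codons 352 to 398 of 559. Its removal there shifts the frame and puts a stop codon 260 nt before the last exon junction. That transcript has the upstream flank of the uncalled event at -0.059, not of the called one. The stop after skipping in the called event was not worked out. The 93-nt exon of SLC43A1 (57265226 to 57265318) had -0.329 (FDR 0.00553) in the authors' deposited table. It covers codons 156 to 186, and its removal keeps the frame. Each SLC43A1 exon had a second event with a p-value of 1, at -0.059 and 0.091 in the authors' deposited table.

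SLC38A9, a lysosomal protein that senses arginine for the growth regulator mTORC1, had a 156-nt 5′ UTR exon (hg19 chromosome 5, 54998567 to 54998722, minus strand) at -0.405 (FDR 0.0211) in the authors' deposited table. Beside another flank this exon had, in the authors' deposited table, -0.081 (p = 0.193). SLC38A1, a sodium-coupled glutamine transporter, had a 123-nt 5′ UTR exon (hg19 chromosome 12, 46648597 to 46648719, minus strand) at -0.131 (FDR 0.0024) in the authors' deposited table. Its event with another flanking exon did not pass, at -0.038 (p = 0.231) in the authors' deposited table. SLC38A9 and SLC38A1 each had 1 called exon, and in both genes it lay before the start codon.

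Metal transporters had the highest share of the classes, with 7 of 48 exons called (14.6%, against 5.72% of all exons). They lay in 5 of 19 genes, with the first set higher in 3 exons and the second in 4. SLC30A6 and SLC30A5, zinc transporters of the early secretory pathway that work as a pair, each had a called coding exon that keeps the frame. The 69-nt exon of SLC30A6 (hg19 chromosome 2, 32434562 to 32434630, plus strand) was higher in the first set by 0.236 (FDR 7.46e-05), per the authors' deposited table. It covers codons 313 to 335 of 501. The 129-nt exon of SLC30A5 (hg19 chromosome 5, 68423831 to 68423959, plus strand), codons 667 to 709 of 765, went the other way, at -0.178 (FDR 0.0166) in the authors' deposited table. SLC30A6 was the only solute carrier gene called in both directions: an 85-nt exon near its start, outside the naming rule, had -0.296 (FDR 0.0372) in the authors' deposited table and matches only a decay-annotated transcript.

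The magnesium transporters SLC41A1 and SLC41A3 were called in opposite directions. SLC41A1 had a 147-nt exon (hg19 chromosome 1, 205767797 to 205767943, minus strand), codons 233 to 282 of 513, at 0.197 (FDR 0.00892) in the authors' deposited table. In SLC41A3, 2 forms of 1 exon that share their start and differ in their end were both higher in the second set. The 153-nt form (hg19 chromosome 3, 125769741 to 125769893, minus strand) had -0.197 (FDR 0.0016) in the authors' deposited table. The 108-nt form (125769786 to 125769893) had -0.132 (FDR 0.00776) in the authors' deposited table. They are counted against the same skipping junction, and both lengths are divisible by 3. SLC39A7, the zinc exporter of the endoplasmic reticulum, had a 415-nt exon at 0.126 (FDR 0.0414) in the authors' deposited table, outside the naming rule.

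The sequences of 3 metal and ion transporter exons are shown as examples of called coding exons whose length is a multiple of 3. They come from GENCODE 29 transcripts and are given with GRCh38 positions, 5′ to 3′ on the transcript strand. In SLC41A3 the capitals mark the 45 nt that only the 153-nt form has.
SLC30A6, 69 nt, chr2:32209493-32209561, plus strand: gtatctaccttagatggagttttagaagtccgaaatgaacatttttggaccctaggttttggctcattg
SLC41A3, 153 nt, chr3:126050898-126051050, minus strand: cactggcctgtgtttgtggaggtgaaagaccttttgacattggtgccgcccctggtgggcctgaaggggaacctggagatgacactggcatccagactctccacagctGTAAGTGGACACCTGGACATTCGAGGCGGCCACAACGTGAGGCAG
SLC8A1, 69 nt, chr2:40170281-40170349, minus strand: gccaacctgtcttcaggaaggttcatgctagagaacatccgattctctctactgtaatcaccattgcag

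Transporters of inorganic ions, protons and bicarbonate had 2 of 73 exons called, a share of 2.74% that is under the 5.72% of all exons. SLC8A1, the sodium/calcium exchanger NCX1, is known for a group of cassette exons that code for part of its large intracellular loop. In the authors' deposited table its 69-nt exon (hg19 chromosome 2, 40397421 to 40397489, minus strand) had 0.41 (FDR 0.000736). It covers codons 652 to 675 of 968 and is in frame. SLC9A7, a cation/proton exchanger of the trans-Golgi network, had a 200-nt exon (hg19 chromosome X, 46541771 to 46541970, minus strand) at -0.215 (FDR 0.0292) in the authors' deposited table. It covers codons 109 to 175 of 726, and its removal shifts the frame. A second SLC9A7 exon, of 60 nt, had a difference of the same sign, -0.222, (FDR 0.0681) in the authors' deposited table.

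Nucleotide sugar transporters and their relatives (families 33 and 35) had 4 of 43 exons called (9.3%, against 5.72% of all exons). These lay in 4 of 16 genes, each with the second set higher, as in 729 of the 1575 called exons of the table. The near-identical pair SLC35E2 and SLC35E2B is among them. SLC35B1 brings ATP into the endoplasmic reticulum, and its 102-nt exon (hg19 chromosome 17, 47784705 to 47784806, minus strand) had the lowest p-values of any solute carrier event. For 2 of its 3 events the authors' deposited table gave -0.096 (p = 2.12e-13) and -0.073 (p = 1.78e-11), both short of the minimum difference of 0.1. The third event, with another flanking exon, had -0.314 (FDR 0.00384) in the authors' deposited table and was called. All 3 values were negative. SLC35B3, a Golgi transporter of the sulfate donor PAPS, had a 98-nt exon (hg19 chromosome 6, 8419813 to 8419910, minus strand) at -0.405 (FDR 0.00023) in the authors' deposited table. It covers codons 228 to 260 of 401; its removal shifts the frame and puts a stop codon 219 nt before the last exon junction.

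SLC35E2 (now SLC35E2A) and SLC35E2B are near-identical neighbours on chromosome 1. The 418-nt 5′ UTR exon of SLC35E2 (hg19, 1675690 to 1676107, minus strand) had -0.697 (FDR 7.46e-05) in the authors' deposited table. SLC35E2B has an exon of the same length (1622415 to 1622832), listed at -0.215 (FDR 0.00738) in the authors' deposited table. In GENCODE 29 the exons are identical in 417 of 418 bases (99.8%), so reads can fall on either copy, and the values of the pair are uncertain and not independent.

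Transporters of organic ions, monocarboxylates, bile acids and lipids had 3 of 38 exons called (7.89%, against 5.72% of all exons). SLC44A3, a choline transporter-like protein, had the called exon with the highest absolute difference: a 108-nt exon (hg19 chromosome 1, 95286505 to 95286612, plus strand) at 0.9 (FDR 7.07e-05) in the authors' deposited table. It matches a 5′ UTR exon. SLC27A5, which activates bile acids and fatty acids with coenzyme A in the liver, had a 115-nt exon (hg19 chromosome 19, 58994899 to 58995013, minus strand) at -0.584 (FDR 0.0114) in the authors' deposited table. No GENCODE 29 exon matched it. SLC10A7, a member of the bile acid transporter family, had a 111-nt partly coding exon at -0.329 (FDR 0.0292) in the authors' deposited table, outside the naming rule.

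Transporters of vitamins, nucleosides and folates had 2 of 23 exons called (8.7%, against 5.72% of all exons). These were in the related equilibrative nucleoside transporters SLC29A1 and SLC29A2. The 107-nt 5′ UTR exon of SLC29A1 (hg19 chromosome 6, 44193798 to 44193904, plus strand) had 0.252 (FDR 0.0146) in the authors' deposited table. With a downstream flank that starts 3 nt later, the authors' deposited table gave it 0.144 (p = 0.157). An overlapping 195-nt form had 0.003 (p = 0.546) in the authors' deposited table. SLC29A2 had a 72-nt exon, outside the naming rule, at -0.405 (FDR 0.0483) in the authors' deposited table. It matches only a decay-annotated transcript. The families counted here as sugar transporters had 0 of 35 exons called, against 5.72% of all exons. Of these, the 186-nt exon of SLC2A6, a glucose transporter family member, passed the FDR limit alone, at -0.091 (FDR 0.00435) in the authors' deposited table.

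**Figure D3:**
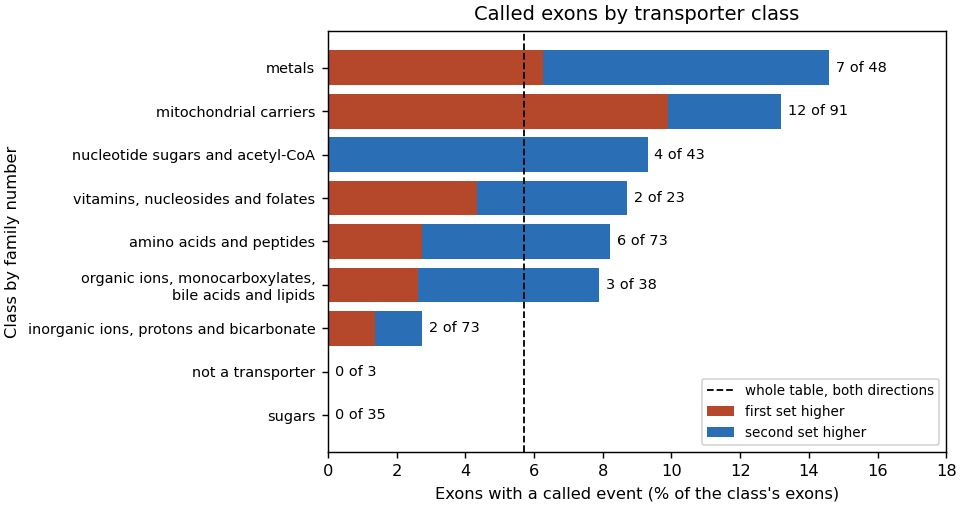
Bars give the share of each class's exons (in %, classes by family number on the vertical axis) with a called event, split by the set with the higher inclusion, with the counts at the right; the dashed line is the whole table (5.72%). Metal transporters (7 of 48) and mitochondrial carriers (12 of 91) have the highest shares, and sugar transporters have 0 of 35.

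The classes were counted by family number, not by the substrate or site of each member, and no test between classes was made. Overlapping forms add to the counts: the 36 called exons are 32 when overlapping exons of a gene are counted once. Genes with more than 1 called exon include SLC25A23, SLC25A36, SLC30A6, SLC3A2, SLC41A3 and SLC43A1.

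A call often rested on 1 pair of flanking exons. Of the 36 called exons, 27 were listed in 1 event and 9 in more than 1. These 9 exons had 9 further events that were not called, of which 6 had the direction of the called event and 3 the opposite one. Among the 6, the 2 of SLC35B1 passed the FDR limit and fell short of the minimum difference only. The events in the opposite direction were the 2 of SLC25A36 and 1 of SLC43A1 given above.

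A match in GENCODE 29 by gene, exon length and both intron lengths was found for 34 of the 36 called exons and for 395 of all 427. Of the 34, 16 lay wholly in coding sequence (47.1%, against 67.6% of the 361 matched exons that were not called). The 5′ UTR held 9 (26.5%, against 7.76%), and 6 matched only transcripts annotated for nonsense-mediated decay (17.6%, against 12.2%). The remaining 3 were partly coding. In the table as a whole, the 5′ UTR held 14.2% of called and 7.96% of all matched exons, coding sequence 58.6% and 66.1%, and decay-annotated transcripts alone 9.88% and 10.1%. These shares were not tested. The 9 exons of the 5′ UTR lie in 7 genes. The SLC35E2 pair gives 2 of them, and overlapping forms within a gene are counted separately.

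**Figure D4:**
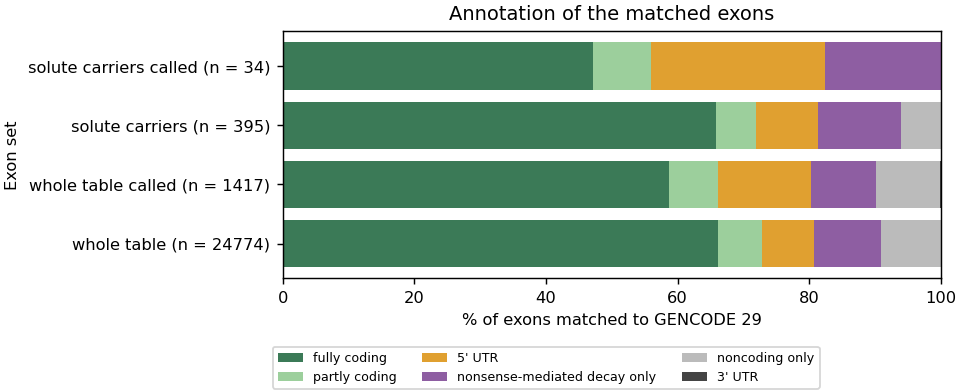
Stacked bars give the share (% of exons matched to GENCODE 29, n at the left) in each annotation class for called and all solute carrier exons and for called and all exons of the table. The 5′ UTR takes 26.5% of the 34 called solute carrier exons and 9.37% of all 395.

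Of the 36 called exons, 20 had a length that is a multiple of 3 (55.6%, against 38.4% of all 427 solute carrier exons and 46% of the called exons of the table). Among the fully coding exons these were 11 of 16 called (68.8%) and 106 of 260 in all (40.8%), against 57.1% of called and 46.3% of all fully coding exons of the whole table. The higher share among called exons was thus also present in the table as a whole. By direction, the length was a multiple of 3 in 6 of 7 fully coding exons with the first set higher. With the second set higher it was so in 5 of 9. The whole table was not split in this way, and the overlapping forms of SLC3A2 and of SLC41A3 are counted separately here. The introns around the called exons had medians of 2090 nt upstream and 2330 nt downstream, and those around all solute carrier exons 1980 and 1900 nt. In the whole table the medians were 2440 and 2400 nt for called exons and 2150 and 2020 nt for all, so called exons had the longer introns there too.

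The RBFOX motif GCATG was searched in the exons only, since no genome sequence of build hg19 was used here for the introns, where RBFOX proteins often bind. On the transcript strand it was present in 4 of the 34 matched called exons (11.8%), in 57 of all 395 solute carrier exons (14.4%) and in 11.6% of the matched exons of the table. The reverse complement, CATGC, was present in 5 of the 34 (14.7%) and in 11.6% of the table's exons. The share with GCATG was thus near that of the table. The 4 exons were in SLC25A33, SLC38A1, SLC39A7 and SLC44A3, of which only that of SLC25A33 is fully coding. Its sequence is shown with the motif in capitals; it covers codons 105 to 139 of 321, and its removal shifts the frame.
SLC25A33, 101 nt, chr1:9570258-9570358, plus strand: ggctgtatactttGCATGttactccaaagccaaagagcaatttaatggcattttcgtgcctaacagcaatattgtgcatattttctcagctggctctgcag

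Many large differences were not calls. An absolute difference of at least 0.1 was listed for 190 solute carrier events, and 153 of these did not pass the FDR limit. In the authors' deposited table SLC25A29 (72 nt) and SLC26A10 (128 nt, now the pseudogene SLC26A10P) were listed at 1 with a p-value of 1. The sodium/bicarbonate cotransporter SLC4A5 (114 nt) and its relative SLC4A8 (252 nt) were listed at -1 with a p-value of 1 in the authors' deposited table. SLC24A4 (54 nt), a sodium/calcium exchanger, stood at 0.863 in the authors' deposited table, also with a p-value of 1. Such events span all or most of the range of the inclusion level without passing, and the read numbers behind them were not used here.

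**Figure D5:**
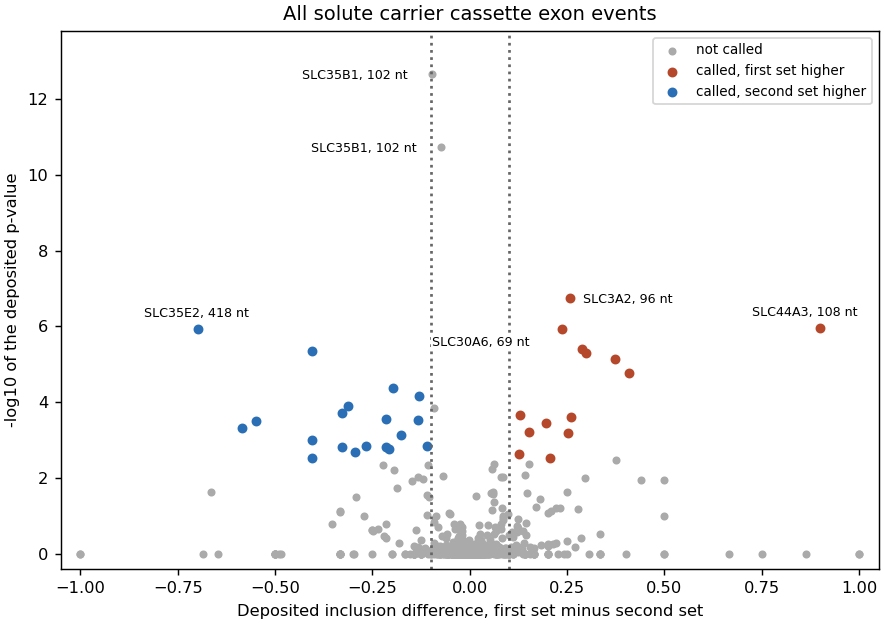
Each point is 1 solute carrier event (470 are shown), with the inclusion difference (first set minus second set) on the horizontal axis and -log10 of the p-value of the authors' deposited table on the vertical axis; dotted lines mark differences of 0.1. The 2 highest points are SLC35B1 events just inside the lines, and the points at 1 and -1 lie at a p-value of 1.

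The exons that came next, with an FDR just above the limit of 0.05, were mixed in direction. In the authors' deposited table SLC44A5, a choline transporter-like gene, had a 95-nt exon at 0.375 (FDR 0.0539). SLC35F5 (96 nt) followed at 0.151 (FDR 0.0643) in the authors' deposited table. SLC6A8, the creatine transporter, had a 138-nt exon at 0.061 (FDR 0.0658) in the authors' deposited table, also under the minimum difference. SLC9A8, a Golgi sodium/proton exchanger, had a 117-nt exon at -0.107 (FDR 0.0685) in the authors' deposited table.

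Being listed with many exons did not by itself go with calls. SLC37A3 had 10 exons in 14 events and 0 calls, with a lowest p-value of 0.0679 in the authors' deposited table. SLC7A6, an amino acid transporter that pairs with the SLC3A2 heavy chain, had 10 exons in 13 events, also with 0 calls and a lowest p-value of 0.00821 in the authors' deposited table.

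Other transport genes, from lists by symbol, were counted in the same way. ABC transporters, the pumps driven by ATP, had 5 of 105 events called (4.76%), in ABCB9, ABCC10 and ABCD4. The organic anion (SLCO) and MFSD genes had 2 of 32 (6.25%), in MFSD10 and MFSD8. P-type ATPases had 2 of 75 (2.67%), 1 of them in ATP13A3, and V-type ATPase subunits 1 of 40 (2.5%), in ATP6V0A1. Together these 70 genes had 10 of 252 events called (3.97%), against 7.69% of the solute carrier events and 5.15% of the table. The difference between the lists was not tested.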

How the data were processed

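The deposited file is an rMATS table of skipped exons, per the file headers. Reads were aligned with STAR 2.7.3a to build hg19, per the submitters' processing notes; the rMATS version and annotation are not given in the sources used here. The inclusion difference, a score from -1 to 1, and its p-value and FDR were used as deposited. The difference was read as first set minus second set, the rMATS convention. Adjusting the deposited p-values over 31408 events by Benjamini-Hochberg returned the FDR (largest gap 1.11e-16). The deposited effective lengths are 94 nt for the skipping form and 97 to 188 nt for the inclusion form, so short exons have fewer possible junction reads. The 6 columns with values per library match no label and were not used in any step; depth and clone spread are therefore unknown here, and the planned edgeR refit was not run. Positions are 1-based.

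Events were collapsed to exons by gene, strand, start and end; an exon was called if any event was, and its called event of lowest p-value is given. Exons were matched to GENCODE 29 (GRCh38) by gene identifier, exon length and both intron lengths, without converting coordinates. Frame and stop positions come from removing the exon from 1 matched transcript, whose flanking exons are not always those of the called event. All 154 gene identifiers had a current symbol, and 3 had been renamed. Named exons were the called ones (the 15 of lowest p-value in each direction, 30 of 36), those passing the FDR limit alone, the next 5 by p-value, the 5 of largest difference at a p-value of 0.5 or more, and the 3 genes with the most exons; others are said to lie outside the rule. Some results under this rule are not reported here, and the counts over all members still hold them. The members, lists and limits were chosen with earlier results of these data known. Counting and matching were tested on simulated data. Alternatives were other FDR limits (0.01, 0.1), Bonferroni correction, minimum differences of 0 and 0.2, transporters only and an exon-level adjustment. Python 3.11.15, pandas 2.3.3, numpy 2.4.6 and matplotlib 3.10.9 were used.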

Additional observations from a re-analysis of the deposited data

How the results depend on the processing

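An FDR limit of 0.01 left 23 called events in 23 exons of 16 genes, 14 with the first set higher and 9 with the second; Bonferroni correction over the table left 5 events in 5 exons of 5 genes, 4 with the first set higher and 1 with the second. Both limits are stricter, which lowers counts by construction. At FDR 0.01, 4.78% of solute carrier events and 3.49% of the table passed. Under Bonferroni the order turned, to 1.04% against 1.5%. The other alternatives kept each count within 1.5 times its main value, with 27 to 42 events and 27 to 41 exons; counting overlapping exons once (32) was added after seeing the data. Of the 30 named called exons, 4 passed at both other FDR limits, under Bonferroni correction and with both other minimum differences: SLC3A2 (96 nt), SLC44A3, SLC30A6 (69 nt) and SLC35E2. No paired analysis was possible because the library columns carry no replicate number. Leaving out a clone and setting a coverage minimum were not run because they need the columns with values per library, which match no label and were not used.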
